A study of Mus musculus with 9 samples.

Results

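Eph receptors and ephrins were followed in 5 tumours of a mouse model of synovial sarcoma and in 4 samples of normal skeletal muscle, 1 Affymetrix expression array per sample. The genes were chosen by name: the receptors Epha3, Epha4, Epha7, Ephb1, Ephb2, Ephb3 and Ephb4, and the ligands Efna5, Efnb1 and Efnb2. These genes and the lists read below were chosen with earlier results of these data known. Of these 10 genes, 7 had a probe set carrying their symbol alone in the annotation used here, out of 14440 genes. They had 17 probe sets out of 25581 with a single gene symbol, and Epha4, Ephb2 and Efna5 were not analysed here. The tumours came from mice labelled MYF-5 CRE/SSM2 and were described as SYT-SSX murine tumours. Synovial sarcoma is a cancer of soft tissue, and SYT-SSX is the fused protein that drives it. The Cre recombinase in these mice is under the control of Myf5, a transcription factor of muscle precursors. Tumour 1 was labelled CC23, tumours 2 and 3 were CC17-B and CC17-A, which share a stem that the labels do not explain, and tumours 4 and 5 were SSM5 and SSM4. Muscles 1 to 4 were wild type and came from hind limb, intercostal muscle, forelimb and hind limb. Tumour and muscle therefore differ in genotype and in tissue at once, and these cannot be told apart. Strain, age, tumour site and the number of animals are not given in the labels, so p-values measure only the spread between these samples, which may be technical.

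Eph receptors are the largest family of receptor tyrosine kinases, and their ligands, the ephrins, are themselves bound to the surface of neighbouring cells. Ephrins of the A class are held by a lipid anchor, and those of the B class span the membrane and pass a signal back into the cell that carries them. The system is best known for guiding axons, for keeping cell populations apart at tissue borders, and for setting arterial against venous identity in blood vessels, where Efnb2 marks arteries and Ephb4 marks veins.

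The DNA just before the start of Ephb1, Ephb3, Ephb4 and Efnb2, the listed B-class genes that were called higher in tumour in every setting that tested them, is shown first, as a reference for the letters of each promoter. Each line gives the 250 bases before the annotated start in RefSeq, build GRCm38.p6, read 5′ to 3′ along the gene's own strand. These are chr9:102354694-102354943 on the minus strand for Ephb1, chr16:21204545-21204794 on the plus strand for Ephb3, chr5:137349859-137350108 on the plus strand for Ephb4 and chr8:8661243-8661492 on the minus strand for Efnb2. Capitals mark GC boxes (GGGCGG, or CCGCCC on the other strand) and CCAAT boxes (CCAAT, or ATTGG on the other strand).
Ephb1: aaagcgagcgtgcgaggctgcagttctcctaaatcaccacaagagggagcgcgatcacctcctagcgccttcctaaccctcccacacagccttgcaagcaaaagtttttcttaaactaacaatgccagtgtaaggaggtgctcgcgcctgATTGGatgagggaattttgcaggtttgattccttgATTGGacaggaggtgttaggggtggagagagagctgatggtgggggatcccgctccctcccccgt
Ephb3: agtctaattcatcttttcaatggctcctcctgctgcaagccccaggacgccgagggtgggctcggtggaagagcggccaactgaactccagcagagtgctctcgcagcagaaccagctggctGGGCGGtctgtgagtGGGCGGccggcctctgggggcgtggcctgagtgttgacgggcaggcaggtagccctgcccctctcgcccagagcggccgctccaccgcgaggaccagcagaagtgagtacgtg
Ephb4: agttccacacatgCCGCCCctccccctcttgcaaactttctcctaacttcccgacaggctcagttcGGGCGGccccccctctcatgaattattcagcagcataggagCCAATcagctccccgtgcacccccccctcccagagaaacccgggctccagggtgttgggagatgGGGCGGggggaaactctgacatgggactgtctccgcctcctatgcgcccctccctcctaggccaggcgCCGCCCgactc
Efnb2: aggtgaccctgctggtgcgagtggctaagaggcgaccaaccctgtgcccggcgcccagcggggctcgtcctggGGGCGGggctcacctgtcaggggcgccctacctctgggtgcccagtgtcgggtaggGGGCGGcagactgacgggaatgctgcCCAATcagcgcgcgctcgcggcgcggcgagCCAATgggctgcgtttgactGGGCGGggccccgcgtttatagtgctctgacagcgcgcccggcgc

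The promoters of these genes differ in their letters. Within 300-base windows, which add 50 bases after the start, Ephb4 held 4 GC boxes, Efnb2 held 3, Ephb3 held 2 and Ephb1 held 0. Of 32851 RefSeq promoter windows of that length, 35.7% held at least 1 GC box. CCAAT boxes numbered 2 in Ephb1, 2 in Efnb2, 1 in Ephb4 and 0 in Ephb3, and 37.4% of all windows held one. Efnb2 had 35 CpG dinucleotides and 72.3% G and C, against medians of 7 and 52.7% over all windows, and it alone of the 4 held the letters TATAAA on either strand, found in 13.6% of all windows. The letters CTTTGA, the core bound by the TCF and LEF factors of the Wnt pathway, were in 0 of the 4 windows on either strand and in 16% of all windows. E-box letters (CANNTG on either strand, with no overlap with the other motifs here) occurred 2 times in Ephb3, 1 time each in Ephb4 and Efnb2 and 0 times in Ephb1, and 72.3% of all windows held one. These are matches of letters in short windows and say nothing of which factor acts there.

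Levels are given as scaled intensity, the brightness of a probe set after each array was brought to the same 2% trimmed mean. The floor of an array is the 40th percentile of its values, from 96.4 to 137, and only genes at or over the floor on 4 or more arrays entered the test. A gene below the floor in any muscle therefore needed tumour arrays to be tested. Tumour was compared with muscle by limma on log2(scaled intensity + 16), with Benjamini-Hochberg adjustment over all 10646 genes tested, and adjusted p-values under 0.05 are calls. This scale understates the change of dim genes. A gene is given by its brightest probe set on average unless another is named. In bulk tissue, fewer cells of a type and less RNA per cell cannot be told apart.

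All 6 of the genes that could be tested (Ephb1, Ephb3, Ephb4, Epha3, Efnb1 and Efnb2) were called higher in tumour, and 0 were called lower. Over all genes tested, 30.1% were called higher and 18.0% lower. In each of the 6, every tumour lay above every muscle, a separation seen in 25.3% of all genes tested. Their median log2 fold change was 2.79, against 0.23 over all genes tested. Epha7, the remaining gene, stayed below the floor on 8 of 9 arrays and was not tested. Ephb3 and Ephb4 passed the filter only through the 5 tumours, so a difference was built into their being tested. Epha3 reached the floor in 1 muscle and Ephb1 in 2, so both also needed tumours to pass. Without any filter on dim values, 6 of the 7 genes were called higher, against 21.6% of 14440 genes. As the genes were chosen with earlier results of these data known, these shares describe them and are not an independent test.

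**Figure D1:**
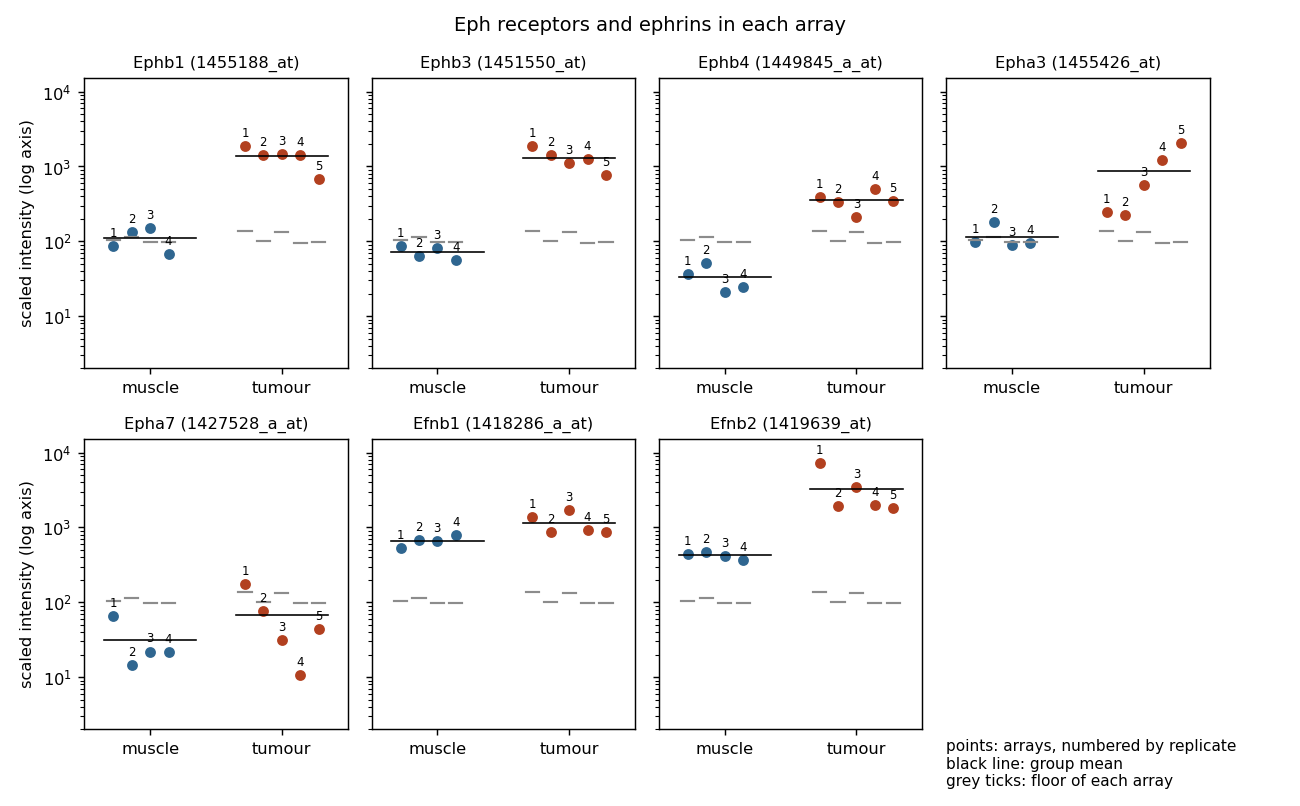
Scaled intensity (log axis) of the probe set standing for each of the 7 genes, with 1 point per array numbered by replicate, a black line at the group mean and grey ticks at the floor of each array. Tumours lie above all muscles for every gene but Epha7, and the muscles of Ephb3 and Ephb4 lie below the floor.

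The B-class receptors Ephb1, Ephb3 and Ephb4 were all called higher, and for Ephb3 and Ephb4 the size of the difference is known only as a bound. Ephb1, a receptor for ephrin-B ligands that takes part in axon guidance, read 87.3, 132, 151 and 66.7 in muscles 1 to 4 and 1893, 1405, 1476, 1412 and 688 in tumours 1 to 5. Muscles 2 and 3 reached the floor and muscles 1 and 4 did not, and tumour 5 was the lowest tumour. The means were 1375 ± 434 (SD, n = 5) in tumour and 109 ± 39.0 (SD, n = 4) in muscle, a log2 fold change of 3.46 with a standard error of 0.32 (limma, adjusted p = 1.58e-05).

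Ephb3, known from the sorting of cells along the intestinal crypt, read 87.0, 63.3, 81.4 and 56.4 in the muscles and 1869, 1423, 1110, 1254 and 759 in the tumours. Every muscle was below its floor, and every tumour was far above it, with tumour 5 again the lowest. Against the floor of the muscle arrays, Ephb3 was at least 10.5-fold higher in tumour, with measured means of 1283 ± 409 (SD, n = 5) and 72.1 ± 14.5 (SD, n = 4). Its log2 fold change was 3.84 with a standard error of 0.27 (limma, adjusted p = 5.1e-06).

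Ephb4, the receptor that binds ephrin-B2 and marks venous endothelium, read 36.8, 51.1, 21.3 and 24.8 in the muscles and 387, 340, 213, 506 and 345 in the tumours. Tumour 4 was the highest and tumour 3 the lowest, an order unlike that of Ephb1 and Ephb3. All 4 muscles were below the floor, so the difference is a bound of at least 3.05-fold (means 358 ± 105, SD, n = 5, and 33.5 ± 13.5, SD, n = 4). In the limma fit its log2 fold change was 2.91 with a standard error of 0.33 (adjusted p = 4.94e-05).

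The A-class receptors were less uniform. Epha3, which binds A-class ephrins and was first described on leukaemic cells, was covered by 4 probe sets. Probe set 1455426_at read 98.7, 180, 88.0 and 95.1 in the muscles and 245, 222, 565, 1233 and 2085 in the tumours. Tumours 4 and 5, the pair labelled SSM, were the highest, and muscle 2, from intercostal muscle, was the only muscle at or above its floor. The tumour mean of 870 ± 792 (SD, n = 5) leaned on tumour 5, without which it was 566 ± 471 (SD, n = 4), against 115 ± 43.0 (SD, n = 4) in muscle. The log2 fold change was 2.30 with a standard error of 0.60 (limma, adjusted p = 0.00868).

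A further probe set of Epha3, 1425575_at, read 49.3, 201, 92.9 and 59.7 in the muscles and 547, 294, 751, 658 and 1133 in the tumours. Muscle 2 was again the highest muscle and tumour 5 the highest tumour, and the groups did not overlap. In the fit over all 17433 probe sets tested, its log2 fold change was 2.61 with a standard error of 0.43 (limma, adjusted p = 0.000612). The other 2 probe sets of Epha3 were too dim to test. Probe set 1425574_at read 4.81 to 268 in the tumours and 5.92 to 121 in the muscles, and 1426057_a_at read 34.1 to 124 and 44.8 to 55.4, so in both the groups overlapped.

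Epha7, a receptor for A-class ephrins with roles in the developing brain, gave no measurable difference. Its brightest probe set, 1427528_a_at, read 66.4, 14.4, 22.0 and 22.0 in the muscles and 178, 75.8, 31.4, 10.7 and 43.6 in the tumours. Only tumour 1 reached its floor. The other probe sets, 1451991_at and 1452380_at, were below the floor on all 9 arrays, with readings from 25.5 to 92.6 and from 2.97 to 76.2. Levels this close to background are a limit of detection and do not show that Epha7 is absent.

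Among the ligands, Efnb2 showed a wide gap and Efnb1 a narrow one. Efnb2 encodes ephrin-B2, the ligand of Ephb4 and of other B-class receptors. Probe set 1419639_at of Efnb2 read 442, 468, 416 and 372 in the muscles and 7224, 1913, 3420, 1973 and 1814 in the tumours. The muscles lay close together and well above the floor, while tumour 1 stood at 17.0 times the muscle mean and the other tumours at 4.27 to 8.06 times. The means were 3269 ± 2308 (SD, n = 5) and 425 ± 40.8 (SD, n = 4), a log2 fold change of 2.68 with a standard error of 0.37 (limma, adjusted p = 0.000192).

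A second bright probe set of Efnb2, 1419638_at, read 126, 230, 127 and 215 in the muscles and 609, 471, 1479, 1036 and 1245 in the tumours. Every tumour was above every muscle here too, but tumour 1 was the second lowest tumour, at 3.49 times the muscle mean. Its log2 fold change was 2.29 with a standard error of 0.36 (limma, probe set fit, adjusted p = 0.000434). The remaining probe sets of Efnb2 were not tested. Of these, 1449548_at read 163 and 207 in tumours 4 and 5 and 6.14 to 41.7 on the other 7 arrays, and 1449549_at read 82.1 to 164 in tumours and 49.98 to 145 in muscles.

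Efnb1, a B-class ligand linked in people to a disorder of skull and face development, was well above the floor in every sample. Probe set 1418286_a_at read 524, 676, 659 and 799 in the muscles and 1376, 858, 1709, 926 and 870 in the tumours. The groups did not overlap, but the lowest tumour and the highest muscle lay close together. The means were 1148 ± 380 (SD, n = 5) and 664 ± 112 (SD, n = 4), a log2 fold change of 0.73 with a standard error of 0.25 (limma, adjusted p = 0.0309). This call ended in 13 of 28 settings: the adjusted p reached 0.136 when arrays were scaled to their 75th percentile, and it was 0.053 with the values as deposited. Leaving out 1 array ended it for muscle 1 (0.63, adjusted p = 0.0949), muscle 2 (0.75, 0.0507), muscle 3 (0.73, 0.0666), tumour 1 (0.65, 0.0533) or tumour 3 (0.58, 0.058). The difference from the median of all genes was 0.48 to 0.51 on the log2 scale over 6 scalings.

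The other probe sets of Efnb1 gave different pictures. Probe set 1418285_at read 210, 218, 253 and 213 in the muscles and 1253, 821, 603, 242 and 196 in the tumours. The 3 tumours with CC labels were 2.70 to 5.61 times the muscle mean, and the tumours labelled SSM were at 1.08 and 0.879 times. Over all 5 tumours its log2 fold change was 1.11 with a standard error of 0.48 and was not called (limma, adjusted p = 0.0831). Without tumour 4 it was called (1.36, adjusted p = 0.0381), and without tumour 5 also (1.43, adjusted p = 0.0194). Probe set 1451591_a_at read 273, 382, 239 and 300 in the muscles and 470, 283, 354, 341 and 333 in the tumours. These overlapped, with a log2 fold change of 0.25 and a standard error of 0.23 (adjusted p = 0.420).

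**Figure D2:**
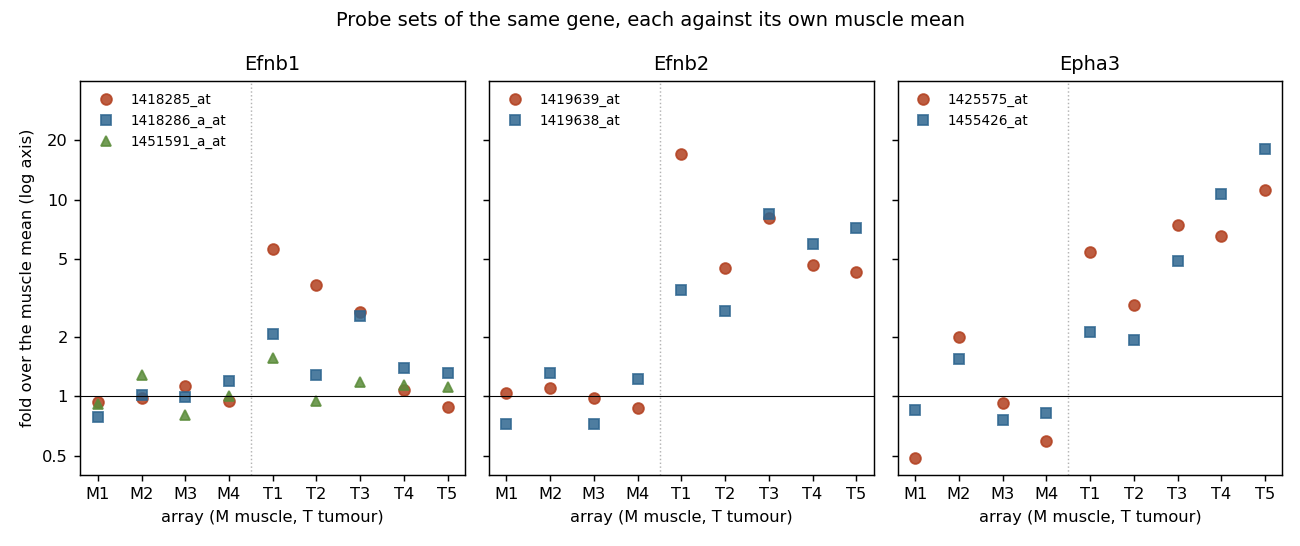
Fold over the muscle mean (log axis) on each of the 9 arrays for the tested probe sets of Efnb1, Efnb2 and Epha3, each probe set against its own muscle mean. For Efnb1, 1418285_at stands at 5.61 in tumour 1 and at 0.879 in tumour 5, and for Efnb2 tumour 1 stands at 17.0 on one probe set and at 3.49 on the other.

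Counted by probe set, 8 of the 10 that were tested were called higher, against 25.6% of all probe sets tested, and 0 were called lower, against 16.6%. In 8 of the 10 every tumour lay above every muscle, which held for 21.6% of all probe sets tested. The 7 untested probe sets were 2 of Epha3, 3 of Epha7 and 2 of Efnb2. Probe sets of a gene can match different parts of its transcripts, and their positions were not used here.

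**Figure D3:**
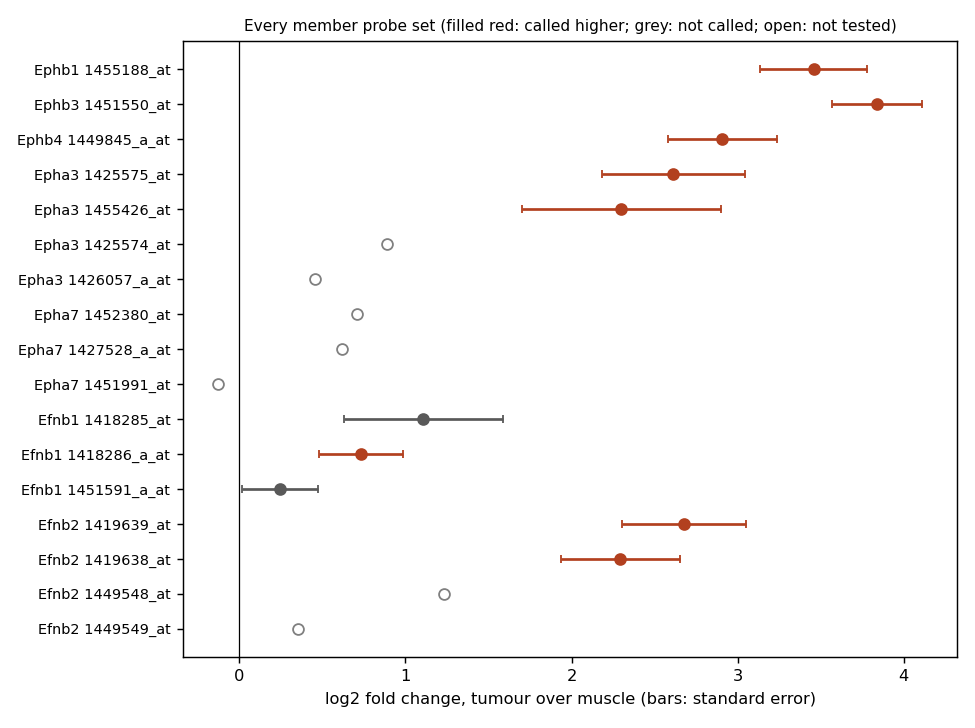
Log2 fold change of tumour over muscle for all 17 probe sets, with bars for the standard error of those tested. Called probe sets (red) run from 0.73 for Efnb1 to 3.84 for Ephb3, and the 7 open points were too dim to test.

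The labels CC and SSM divide the tumours in some of these probe sets. Epha3 (1455426_at) and Efnb2 (1449548_at and 1449549_at, both too dim to test) were higher in both SSM tumours than in the CC tumours. Efnb1 (1418285_at) was higher in all 3 CC tumours. The other tested probe sets of these genes overlapped between the labels. These were 1425575_at of Epha3, 1419638_at and 1419639_at of Efnb2, and 1418286_a_at and 1451591_a_at of Efnb1. The share of all probe sets that divide the tumours this way is not given here. What these labels stand for is not given, and the difference between them was not tested.

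The rest of the family was also mostly higher in tumour. Of 12 further Eph receptors and ephrins, 11 were in the annotation and 8 were tested, of which 7 were called higher and 0 lower. Over all genes tested, 30.1% were called higher and 18.0% lower. All 5 further ephrins were called. Over the settings, the count of ephrins called higher ran from 2 to 5 and that of receptors from 0 to 3, with some genes not tested in every setting. Efna2, Efna4 and Epha8 were below the floor in all muscles and passed the filter only through tumours, so a difference was built into their being tested too. Efna3 and Epha2 reached the floor in 1 muscle and Efnb3 in 3, so these also needed tumours to pass. Without any filter, the 5 ephrins and 3 of the 6 further receptors were called higher, against 21.6% of 14440 genes. Efna3, an A-class ligand, read 1094 ± 333 (SD, n = 5) in tumour and 66.8 ± 43.1 (SD, n = 4) in muscle (log2 fold change 3.85, standard error 0.36, limma adjusted p = 1.85e-05). Efna2 was at least 5.55-fold higher (673 ± 236 and 55.1 ± 47.2, adjusted p = 0.000177), although its other probe set, 1417521_at, showed a log2 fold change of 0.10 and was not called. Efna4 was at least 2.43-fold higher (300.2 ± 157 and 67.3 ± 36.9, adjusted p = 0.00457). Efnb3, the third B-class ligand, had a log2 fold change of 2.04 (458 ± 184 and 119 ± 74.5, adjusted p = 0.0136), which was 1.36 without muscle 2. Efna1 differed least, at 507 ± 40.7 and 340 ± 10.7 (log2 fold change 0.55, adjusted p = 0.0208). Its call ended in 8 of 28 settings, with an adjusted p of up to 0.26, among them leaving out muscle 4 (0.54, adjusted p = 0.0527). On the other probe set of Efna1, 1448510_at, the groups overlapped, with no call (0.47, limma, probe set fit, adjusted p = 0.460). That of Efna3, 1455344_at, was called higher (3.01, limma, probe set fit, adjusted p = 0.000146).

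Of the 3 further receptors tested, Epha2 and Epha8 were called. Epha2, a receptor of epithelial tissue, read 331 ± 121 (SD, n = 5) in tumour and 78.1 ± 36.8 (SD, n = 4) in muscle (log2 fold change 1.89, limma adjusted p = 0.00197). Epha8 read 539, 532, 322, 20.8 and 119 in tumours 1 to 5 and 16.1 ± 2.67 (SD, n = 4) in muscle. Tumour 4 was near the muscles, while the other tumours were above their floors and all muscles were below theirs. The mean log2 level of the tumours was 1.85-fold above the floor of the muscle arrays. This takes the reading of tumour 4, below its own floor, at face value and is not a strict bound. The log2 fold change of Epha8 was 2.78 (limma, adjusted p = 0.00937), or 3.42 without tumour 4. Efnb3 lost its call in 3 settings and Epha8 in 2, with an adjusted p of up to 0.0761 and 0.0557. Epha5 was not called (log2 fold change 0.68, adjusted p = 0.267), except without tumour 2 (1.09, adjusted p = 0.0227). Epha1, Epha6 and Ephb6 were too dim to test.

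Downstream of the receptors, the exchange factors and GTPase activating proteins that link them to the cytoskeleton were mostly higher. Of 9 tested, 7 were called higher and 1 lower, with a median log2 fold change of 1.15. Over all genes tested, 30.1% were called higher and 18.0% lower. Chn2, a Rac-inactivating chimaerin, read 879 ± 321 (SD, n = 5) in tumour and 71.3 ± 44.6 (SD, n = 4) in muscle, a log2 fold change of 3.47 (limma, adjusted p = 8.95e-05). Tiam1, a Rac activator, read 1613 ± 255 and 281 ± 59.2, a log2 fold change of 2.46. Rin1, a Rab5 activator, was at least 3.27-fold higher, and Vav2, an exchange factor, had a log2 fold change of 1.63. Rin1 was below the floor in all muscles and passed the filter only through tumours, so a difference was built into its being tested. Chn2 reached the floor in 1 muscle and Vav2 in 2, so both also needed tumours to pass. Itsn1, named here after its value was seen, was lower, at 1190 ± 556 and 2565 ± 490 (log2 fold change -1.20, adjusted p = 0.0109). When the probe sets of each gene were averaged, 4 were called higher and 0 lower. Over the settings, the count called higher ran from 4 to 8. Rgs3 (0.70, limma, adjusted p = 0.0474), named after its value was seen, lost its call in 17 of 27 settings. Among these were leaving out any 1 of muscles 1, 3 and 4 or tumours 1 to 4. Sipa1l1 (0.98), also named after its value was seen, lost its call in 4 of 28 settings.

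The cytoplasmic kinases and adaptors that bind activated Eph receptors were close to the background, with 5 of 16 tested called higher (31.2%), 1 lower and a median of 0.25. The largest differences were those of Shb, an adaptor (1.71), Yes1, a Src family kinase (1.32), and Cbl, a ubiquitin ligase that targets receptors for degradation (1.23). Nck2 and Rasa1, named after their values were seen, completed the 5, at 0.80 and 0.78. The call of Nck2 was lost in 5 of 27 settings and that of Rasa1 in 13 of 28. Cbl was not called when its probe sets were averaged (0.35, adjusted p = 0.402). Inppl1, the lipid phosphatase SHIP2 that binds Epha2, was lower at -0.80 (adjusted p = 0.0222), a call lost in 5 of 27 settings, among them leaving out muscle 2 (-0.67, adjusted p = 0.0621). The call of Rasa1 ended without any 1 of muscles 1, 3 and 4 or tumours 2 to 5 (log2 fold change 0.64 to 0.81, adjusted p from 0.0564 to 0.0977). The count called higher ran from 3 to 9 over the settings.

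Proteins listed as binding B-class ephrins were near the background of 30.1% called higher, at 1 of 4 tested. So were enzymes that cut or dephosphorylate the receptors and ligands, at 2 of 6 tested. Of 4 binding proteins tested, Ptpn13, a phosphatase, was called higher (1.34, adjusted p = 0.0358, lost in 13 of 27 settings). Leaving out any 1 of muscles 1, 3 and 4 or tumours 3 to 5 ended that call (1.06 to 1.36, adjusted p from 0.067 to 0.108). Cldn5, a tight junction protein of endothelium, was called lower (-0.96, adjusted p = 0.00433). It is also on the endothelial marker list below, and its difference was -0.32 and not called after centring on genes of the ribosome and proteasome. Of 6 enzymes tested, Adam10, the metalloprotease that sheds ephrins, was called higher at 0.70 (adjusted p = 0.0121, lost in 4 of 28 settings). Ptpro, a receptor phosphatase that acts on Eph receptors, was called at 1.01 (adjusted p = 0.0488, lost in 16 of 26 settings), and leaving out any 1 muscle or any 1 of tumours 3 to 5 ended the call (0.81 to 1.08, adjusted p from 0.0737 to 0.105). The count of enzymes called ran from 0 to 5 over the settings.

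EphB receptors are known as targets of Wnt signalling in the intestine, so a list of Wnt target genes was also read. Of 9 tested, 6 were called higher and 0 lower, with a median of 1.79. Over all genes tested, 30.1% were called higher. Myc, Nkd1 and Notum were not called (limma, adjusted p = 0.609, 0.166 and 0.0870). Lef1, a transcription factor of the pathway, had a log2 fold change of 3.82, and Lgr5, a receptor of intestinal stem cells, had 3.56. Lef1 reached the floor in only 1 muscle and needed tumours to be tested. Ccnd1, cyclin D1, had 3.07, and Axin2, a feedback inhibitor of the pathway, had 1.95. These 4 calls, and that of Cd44 (1.79), held in all 28 settings. The call of Znrf3 (0.68) ended in 7 of 28, among them leaving out muscle 3 (0.55, adjusted p = 0.0733). A part of Wnt signalling in the levels of the EphB receptors was not tested.

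**Figure D4:**
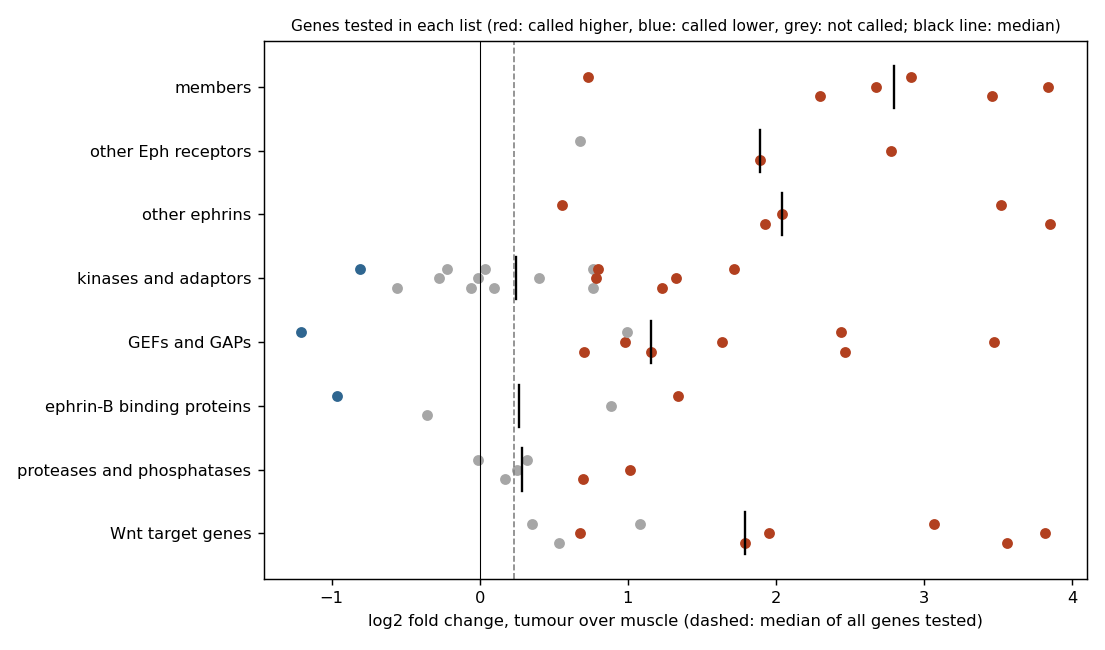
Log2 fold change of tumour over muscle for each gene tested in 8 lists, coloured by its call, with a black line at the median of the list and a dashed line at the median of all genes tested, 0.23. The family lists have medians of 1.89 to 2.79, and the kinases and adaptors have 0.25.

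Marker genes of other cell types moved with the comparison, and their part in the results above was not tested. Skeletal muscle fibre markers were called lower for 15 of 16 genes, with a summed scaled intensity of 611657 to 854210 in muscles and 884 to 155821 in tumours, so the muscle label matched its markers. Endothelial markers were called lower for 10 of 16 (summed level 4045 to 6400 in tumours, 8206 to 10291 in muscles), and 0 were called higher. Over 6 scalings, the count of endothelial markers called lower ran from 1 to 13. Over all genes tested, 30.1% were called higher and 18.0% lower. Of 7 arterial markers tested, Dll4, Hey1, Hey2 and Unc5b were called higher and Acvrl1 and Sox17 lower (2302 to 5072 and 1931 to 2287), with Bmx and Gja5 below the floor on every array. Of 4 venous and lymphatic markers tested, Nrp2 was called higher and Lyve1 lower (3227 to 9599 and 2878 to 3992), and Nr2f2, which defines veins, was below the floor in all tumours and all muscles.

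Neural markers were called higher for 6 of 9 genes tested and lower for 0 (8718 to 20768 in tumours, 1558 to 1964 in muscles). Over all genes tested, 30.1% were called higher and 18.0% lower. Sox2, Gad1, Tubb3, Dcx, Gap43 and Snap25 were below the floor in all muscles, and of these only Sox2 and Gad1 were tested. Epithelial markers were called higher for 5 of 8 and lower for 0 (3164 to 17592 and 603 to 1378), the 5 being Cdh1, Dsp, Epcam, Krt8 and Krt18. Pericyte and smooth muscle markers were called lower for Abcc9, Acta2 and Kcnj8 of 8 tested (7030 to 13467 and 17787 to 25506). The summed level leaned on Abcc9, the brightest of these in muscle, at 678 ± 349 (SD, n = 5) in tumour and 8460 ± 3285 (SD, n = 4) in muscle. Schwann cell markers were called lower for Cdh19, Mbp and S100b of 8 tested (4214 to 11166 and 5109 to 7595), and 0 of either list were called higher. Fibroblast markers were called higher for Col1a1 and Pdgfra and lower for Dcn, Dpt and Pi16 of 10 tested (28752 to 121036 and 55247 to 72733). Leukocyte markers were called higher for C1qb, Cd68 and Tyrobp of 6 tested (6447 to 17140 and 4682 to 5301). Adipocyte markers gave 0 calls among 4 tested (494 to 34182 and 28528 to 116876). Muscle precursor markers were called higher for Pax3 and Pax7 and lower for Cdh15, Myf5 and Myod1 of 7 tested (863 to 3834 and 2106 to 2906), and Myf5 was below the floor in all tumours. Among the markers called, Sox2, Gad1, Dsp, Epcam and Hey2 passed the filter only through tumours, and Myf5 and Cdh19 only through muscles. A difference was therefore built into their being tested. The genes named within the marker lists were picked after their values were seen.

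RNA quality differed between the groups as well. The log2 ratio of the 3-prime to the 5-prime Actb control probe set, which rises as RNA is degraded, was 0.70 to 0.95 in muscles and 0.99 to 3.67 in tumours, highest in tumour 1. With this ratio in the fit as a covariate, Ephb1, Ephb3, Ephb4, Epha3 and Efnb2 were still called higher, and Efnb1 was not (0.67, adjusted p = 0.114). Of the further family genes called, the covariate ended the calls of Efna1 (adjusted p = 0.0581), Efnb3 (adjusted p = 0.0761) and Epha8 (adjusted p = 0.0557). Without tumours 1 and 4, which have the highest ratios, Ephb1, Epha3 and Efnb2 were still called, and Efnb1 was not (0.71, adjusted p = 0.0688). Ephb3 and Ephb4 then reached the floor on only 3 arrays and were not tested.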

How the data were processed

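The deposited values are MAS5 probe set signals on a linear intensity scale, made by the authors per the submitters' processing notes, with version, scaling target and background step not given in the sources used here. The table held 30508 probe sets on 9 arrays. Control probe sets (7) and those with several gene symbols (496) or none (4424) were left out. Arrays were scaled to a common 2% trimmed mean (429.7 to 609.7 before, factors 0.909 to 1.29). The 5 tumours and 4 muscles were tested with lmFit and eBayes (trend, two-sided) of limma 3.58.1, run under R 4.3.3, in a fit of 1 probe set a gene and a fit of all single-symbol probe sets. Where all arrays of a group lay below the floor, the fold is a bound of the other group's mean log2 level over that floor. For Epha8 it is not a strict bound, as tumour 4 was also below its floor. The number of arrays limits the precision. All members and other family genes are named, and of each further list up to 4 called genes with the largest change; any others were picked after their values were seen. Members and lists were chosen with earlier results of these data known. Promoter sequences are from RefSeq, and 27025 genes had a window. The alternatives were other scalings, pseudocounts of 1 and 64, filters, probe set choices, fit options and samples left out. One further list of genes is not reported here. The procedure was tested on simulated data.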

Additional observations from a re-analysis of the deposited data

Results flagged for a closer look

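In 9 of 80 groups of arrays, a sample lay further from its nearest neighbour than Dixon's 95% critical value allows, and chance alone flags about 1 group in 20. Muscle 2, from intercostal muscle, accounted for 5 of them. On 3 probe sets of Epha3 it stood apart from the other muscles, at 180 on 1455426_at, 121 on 1425574_at and 44.8 on 1426057_a_at, the last of these the lowest muscle. The summed pericyte and smooth muscle markers of muscle 2 were the lowest of the muscles, at 17787, and its summed adipocyte markers the highest, at 116876. Muscle 1 stood apart on Epha7 (1427528_a_at) at 66.4 and on Epha1 (1422917_at) at 51.7, both below the floor. Tumour 2 stood apart on Ephb6 at 56.0, also below the floor. The summed epithelial markers of tumour 3 were 17592, above the other tumours.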

How the results depend on the processing

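Results were recomputed under 27 other settings, of which 25 apply to the probe set fit. The count of genes called higher fell to 3 and that of probe sets to 5 without tumours 1 and 4, where Ephb3 and Ephb4 were not tested because they reached the floor on fewer than 4 arrays, and over all settings the counts ran from 3 to 6 genes and from 5 to 10 probe sets. Leaving out 1 array at a time gave 5 to 6 genes and 7 to 9 probe sets called higher, 0 called lower, 4221 to 5320 of all genes called and 5861 to 7820 of all probe sets called. Ephb1 and Efnb2 kept their direction and their call in all these settings, and Epha3, Ephb3 and Ephb4 in every setting that tested them. Efnb1 (1451591_a_at), which was not called, turned to -0.01 with 75th percentile scaling (adjusted p = 0.979) and to -0.04 with quantile normalization (adjusted p = 0.911), and was called higher at 0.89 with centring on genes of the ribosome and proteasome (adjusted p = 0.0279). All genes together had a median log2 fold change from -0.02 to 0.88 over 6 scalings, and the share of calls that were higher was 62.6% as reported, 55.4% as deposited, 51.8% with median centring, 47.8% with 75th percentile scaling, 55.1% with quantile normalization and 86.1% with centring on genes of the ribosome and proteasome. No paired analysis was possible because the labels give the groups no shared replicate numbers. Signal over background limits Epha7 and the other dim probe sets, and the genotype and tissue of the groups cannot be told apart.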
